A study of Mus musculus with 4 samples.

Results

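The genes described here encode the machinery that copies chromosomal DNA: 44 genes chosen by name, from origin recognition to deoxynucleotide supply, of 19938 genes with a probe set of their own on the arrays. Each gene is represented by its brightest probe set, judged by the mean of the 4 arrays, and all 44 were bright enough to be tested. Microarrays of whole transcripts were run on Tc17 cells and on CTLs, with 2 biological replicates of each. Tc17 cells are CD8+ T cells polarised to make IL-17, and CTLs are cytotoxic T lymphocytes. Both were grown for 2 days from CD8+ T cells of the spleen and lymph nodes of WT C57BL/6 mice, isolated by magnetic negative selection. The Tc17 cultures were given IL-2, IL-6, TGF-β and an antibody to IFN-γ, while the CTL cultures were given IL-2 and the same antibody. Per the study's methods, its Tc17 cells were primed through CD3 and CD28. The study's reporting summary describes its mice as young adults matched for age and sex, while the labels of these samples give neither, nor if replicates are from separate animals. The p-values therefore cover the spread between these cultures, which may be technical. The comparison asks which parts of the replication machinery differ in transcript level between the 2 polarisations.

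Replication begins when the origin recognition complex (ORC), with CDC6 and CDT1, loads the MCM helicase onto DNA in G1. In S phase CDC45 and the GINS complex switch the helicase on, polymerase α-primase lays primers, and polymerases ε and δ extend them, held to DNA by the PCNA clamp that the RFC complex loads. T cells that leave quiescence after antigen receptor stimulation divide fast, and most of these genes are switched on by E2F transcription factors as the cells pass into S phase.

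Transcripts of the replication machinery were lower in Tc17 cells for part of the genes, and by modest amounts. Of the 44 genes, 11 fell at a limma adjusted p under 0.05 and 0 rose, while 7.44% of all 14953 genes tested fell and 8.22% rose. The genes that fell were *Orc1*, *Orc2*, *Orc4* and *Orc6*, *Mcm2*, *Mcm10*, *Pold2*, *Pole*, *Rfc3*, *Rpa3* and *Tyms*, by 1.36-fold to 2.09-fold. At an unadjusted p under 0.05, 19 of the 44 were lower and 0 were higher. Of all 14953 genes tested, 1919 were lower at that p (12.8%), and 4049 passed it in either direction. The difference, Tc17 minus CTL on the log2 scale, was below 0 for 39 of the 44 genes, against 46.4% of all genes tested, and its median was -0.28, against 0.02 over all genes tested. Both Tc17 arrays lay below both CTL arrays for 32 of the 44, a pattern shown by 24.8% of all genes tested. In cells measured in bulk, fewer cells in S phase and less of these transcripts in each cell cannot be told apart. The median stayed below 0 with cyclic loess (-0.24) and with median centring of the arrays (-0.29). Leaving out CTL replicate 1 gave 6 genes that fell, and leaving out CTL replicate 2 gave 7. Leaving out Tc17 replicate 1 gave 11, of which 8 were among the 11 named, and leaving out Tc17 replicate 2 gave 5. When every one of the 35557 rows of the table was tested, limma called 0 of the 44, with a lowest adjusted p of 0.0519, and 0.745% of all rows fell.

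**Figure D1:**
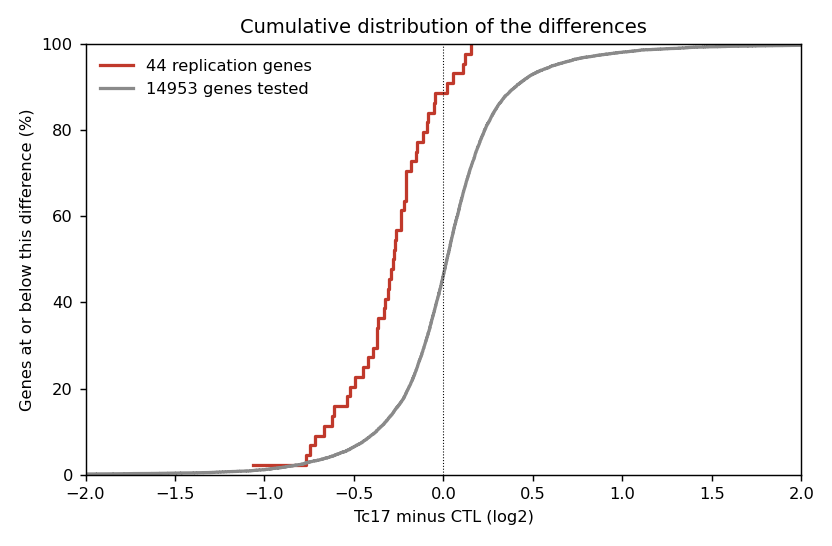
Cumulative share of genes (vertical axis, percent) at or below each Tc17 minus CTL difference (horizontal axis, log2), for the 44 replication genes (red) and for all 14953 genes tested (grey). The median was -0.28 for the replication genes and 0.02 for all genes, and no replication gene had a difference above 0.16. The axis runs from -2 to 2, which leaves out the farthest of all genes.

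Part of the promoters of these genes share a feature that the choice of genes did not use. In RefSeq's promoter windows of GRCm38.p6, which run from 250 bases before to 50 bases after a gene's start, 37 of the 44 genes had an entry. Those without one here were *Mcm4*, *Gins1*, *Gins2*, *Gins4*, *Prim2*, *Pole* and *Rfc2*. An E2F motif (TTTCCCGC, TTTCGCGC, TTTGCCGC or TTTGGCGC on either strand, overlapping matches counted as 1) was found in 15 of the 37, or 40.5%, against 2.6% of all 27025 genes in the table. Among the genes tested on the arrays that had an entry, the share was 4.16%. The match was found for 2 of the 10 genes with an entry that fell (*Orc1* and *Rfc3*) and for 13 of the 27 that did not pass. A CCAAT box (CCAAT on either strand) was found for 23 of the 37 genes, against 41.1% of all genes in the table and 41.6% of those tested. It was found for 9 of the 10 that fell and for 14 of the 27 that did not pass. A GC box (GGGCGG) and a CHR motif (TTTGAA or TTCGAA) were also searched on either strand. The GC box was found for 28 of the 37 genes, against 38.2% of all genes in the table and 62.7% of those tested. It was found for 8 of the 10 and 20 of the 27. The CHR motif was found for 7 of the 37, against 21.7% and 16.4%, with 3 of the 10 and 4 of the 27. None of these splits was tested. Of the 19 E2F matches, 14 began no more than 100 bases before the start or lay after it. *Mcm3*, *Mcm6*, *Mcm7* and *Rfc3* held 2 separate matches each. A match of letters is a description of the window and not of binding.

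To show how matches and differences fell together or apart, the promoters of 3 genes that fell and of 2 with differences near 0 are printed, chosen after their values were seen, read 5′ to 3′ along the gene's own strand, with E2F matches in capitals. *Orc1* (chr4:108579204-108579503, plus strand) and *Rfc3* (chr5:151651159-151651458, minus strand) fell and hold matches, the one in *Orc1* beginning 27 bases before the start and those in *Rfc3* 10 bases before it and at it. *Mcm10* (chr2:5012742-5013041, minus strand) fell and holds no match in this window. The window of *Mcm10* ends in all but the last letter of the motif TTTGGCGC, and the base beyond it was not read. *Mcm3* (chr1:20820263-20820562, minus strand) and *Cdt1* (chr8:122567765-122568064, plus strand) hold matches after the start, at 19 and 38 bases in *Mcm3* and at 32 bases in *Cdt1*, and their differences were 0.02 and 0.06.
*Orc1*: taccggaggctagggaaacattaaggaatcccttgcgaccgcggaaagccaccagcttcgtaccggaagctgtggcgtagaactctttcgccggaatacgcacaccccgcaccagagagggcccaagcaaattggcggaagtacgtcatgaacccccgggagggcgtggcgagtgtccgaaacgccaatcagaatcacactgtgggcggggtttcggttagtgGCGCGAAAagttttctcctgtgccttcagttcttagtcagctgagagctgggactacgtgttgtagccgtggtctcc
*Rfc3*: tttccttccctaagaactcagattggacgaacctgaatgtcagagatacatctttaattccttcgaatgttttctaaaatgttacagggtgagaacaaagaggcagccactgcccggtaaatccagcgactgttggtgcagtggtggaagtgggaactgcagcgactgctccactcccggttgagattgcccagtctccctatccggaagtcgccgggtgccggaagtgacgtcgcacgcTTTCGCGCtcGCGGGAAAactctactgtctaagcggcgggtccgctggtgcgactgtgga
*Mcm10*: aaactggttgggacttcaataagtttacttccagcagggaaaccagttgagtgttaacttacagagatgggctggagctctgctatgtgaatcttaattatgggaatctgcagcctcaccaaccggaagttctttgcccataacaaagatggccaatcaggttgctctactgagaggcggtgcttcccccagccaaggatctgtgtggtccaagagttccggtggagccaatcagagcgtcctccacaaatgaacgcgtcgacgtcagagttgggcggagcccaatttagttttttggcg
*Mcm3*: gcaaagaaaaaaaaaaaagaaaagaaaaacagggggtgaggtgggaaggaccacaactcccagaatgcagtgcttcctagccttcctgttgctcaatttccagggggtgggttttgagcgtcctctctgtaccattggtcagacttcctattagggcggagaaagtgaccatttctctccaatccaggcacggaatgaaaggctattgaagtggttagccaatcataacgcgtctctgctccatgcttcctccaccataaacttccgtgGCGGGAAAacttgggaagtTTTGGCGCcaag
*Cdt1*: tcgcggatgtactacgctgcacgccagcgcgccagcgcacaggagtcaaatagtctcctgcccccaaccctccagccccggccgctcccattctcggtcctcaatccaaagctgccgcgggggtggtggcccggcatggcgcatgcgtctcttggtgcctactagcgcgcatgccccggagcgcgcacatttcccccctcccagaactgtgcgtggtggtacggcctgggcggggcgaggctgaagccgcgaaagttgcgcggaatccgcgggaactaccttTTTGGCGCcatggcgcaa

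The origin recognition complex, which marks the sites where replication can start, was lower in Tc17 cells at 4 of its 6 subunits. Of all genes tested, 7.44% fell. The complex had a median difference of -0.55, the lowest of the 10 groups of genes. *Orc1*, the ATPase subunit, which human cells degrade in S phase, stood at 4.18 and 3.50 in Tc17 cells, against 5.0 and 4.80 in CTLs (log2 RMA intensity, replicates 1 and 2). It fell by 1.06 ± 0.20 (log2 difference ± SE of the fit), or 2.09-fold, with a limma adjusted p of 0.00353. The groups did not overlap, and the Tc17 arrays lay farther apart than the CTL arrays. Its level in Tc17 replicate 2 was near the array medians, which were 3.18 to 3.20. *Orc2*, a core subunit, stood at 6.08 and 5.99 in Tc17 cells, against 6.80 and 6.77 in CTLs, and fell by 0.75 ± 0.13 (limma adjusted p = 0.00213). Its replicates were close in both groups. *Orc6*, which helps bring in the helicase, stood at 7.20 and 7.03 in Tc17 cells, against 7.72 and 7.73 in CTLs, and fell by 0.61 ± 0.13 (limma adjusted p = 0.00830). *Orc4*, another ATPase-fold subunit, stood at 5.64 and 5.41 in Tc17 cells, against 5.92 and 6.13 in CTLs, and fell by 0.50 ± 0.14 (limma adjusted p = 0.0357). *Orc3* (-0.21, 95% interval from -0.49 to 0.07) and *Orc5* (-0.24, from -0.57 to 0.09) did not pass. *Orc1* and *Orc2* kept their calls whichever array was left out, *Orc4* lost it without CTL replicate 2 (-0.39) or Tc17 replicate 2 (-0.38), and *Orc6* lost it without Tc17 replicate 2 (-0.52).

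**Figure D2:**
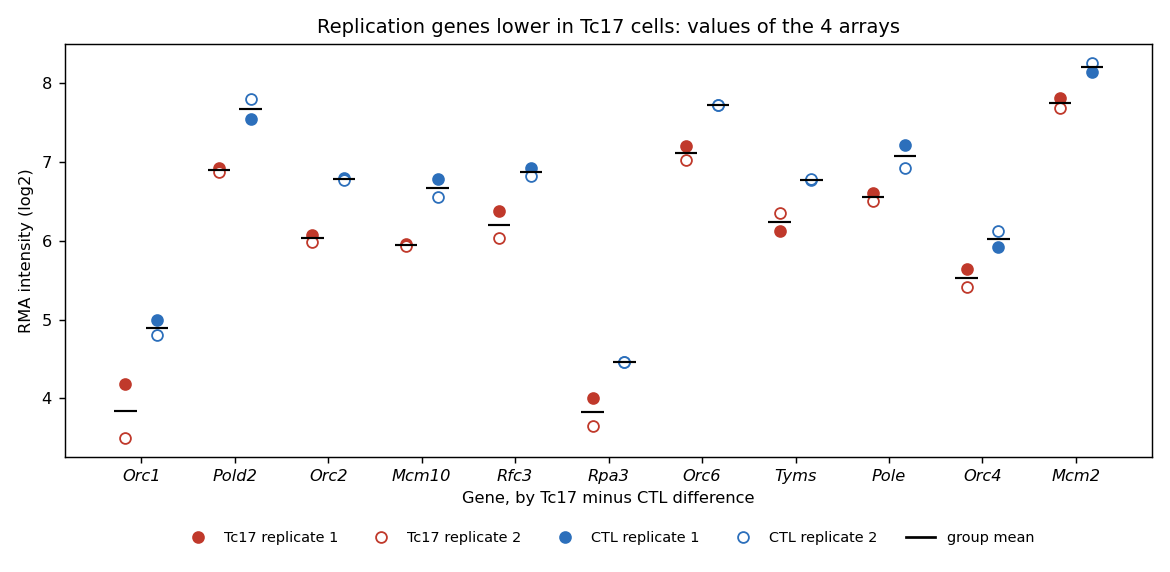
RMA intensity (vertical axis, log2) on each array of the 11 replication genes that fell, sorted by size of the change. Each circle is an array, red for Tc17 and blue for CTL, solid for the first replicate and hollow for the second, and bars are group means. For every gene both Tc17 arrays lie below both CTL arrays, as in *Orc1* (4.18 and 3.50 in Tc17 cells, against 5.0 and 4.80 in CTLs). The genes were chosen by their adjusted p on these same arrays, so this separation follows largely from the choice. Heights of different genes are not comparable, since they come from different probes.

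The loading factors that ORC recruits did not pass the test. *Cdc6*, an ATPase that completes the loading platform, stood at 6.18 and 6.16 in Tc17 cells, against 6.39 and 6.56 in CTLs, a difference of -0.31 (limma adjusted p = 0.153) with no overlap between the groups. *Cdt1*, which escorts the MCM ring to the origin and is destroyed in S phase, differed by 0.06 (95% interval from -0.24 to 0.35), and its groups overlapped.

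The 6 subunits of the MCM ring, the motor of the replicative helicase, spread around a median difference of -0.28. Of the 6, 1 fell, beside 7.44% of all genes tested. *Mcm2* stood at 7.81 and 7.69 in Tc17 cells, against 8.14 and 8.26 in CTLs, and fell by 0.45 ± 0.13 (limma adjusted p = 0.0379). This call was lost with each of the 4 arrays left out in turn (differences from -0.51 to -0.39). It was also lost with cyclic loess (-0.39) and with the replicate number as a block (limma adjusted p = 0.0509). *Mcm4* stood at 7.83 and 7.55 in Tc17 cells, against 8.08 and 8.05 in CTLs (-0.37, limma adjusted p = 0.104). *Mcm5* stood at 7.86 and 7.77 in Tc17 cells, against 8.19 and 8.18 in CTLs (-0.37, limma adjusted p = 0.0764), and passed with an intensity trend and robust moderation (limma adjusted p = 0.0305). In all of these the groups did not overlap. *Mcm7* (-0.18) and *Mcm6* (-0.15) did not pass, and *Mcm3* differed by 0.02, with a 95% interval from -0.26 to 0.30. The spread among the subunits, from -0.45 to 0.02, was not tested, and the intervals of *Mcm2* (from -0.73 to -0.16) and *Mcm3* overlap.

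Among the factors that activate the helicase, *Mcm10*, a scaffold at the unwinding fork that despite its name is no part of the ring, fell by 0.72 ± 0.13 (limma adjusted p = 0.00374). It stood at 5.96 and 5.94 in Tc17 cells, against 6.78 and 6.56 in CTLs, and passed whichever array was left out. *Cdc45*, which binds the ring to form the active helicase, stood at 6.92 and 6.99 in Tc17 cells, against 7.34 and 7.35 in CTLs, and had the lowest adjusted p of the genes that did not pass (-0.39, limma adjusted p = 0.0589). It passed with an intensity trend and robust moderation (limma adjusted p = 0.0348) and with a filter at the median level (limma adjusted p = 0.0468). The GINS genes, whose products join the same helicase, did not pass. Their differences were -0.33 for *Gins1*, 0.12 for *Gins2*, -0.05 for *Gins3* and -0.12 for *Gins4*. *Gins1* was uneven within Tc17 cells, at 5.80 and 5.15, against 5.70 and 5.90 in CTLs, and it passed without Tc17 replicate 1 (-0.65).

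**Figure D3:**
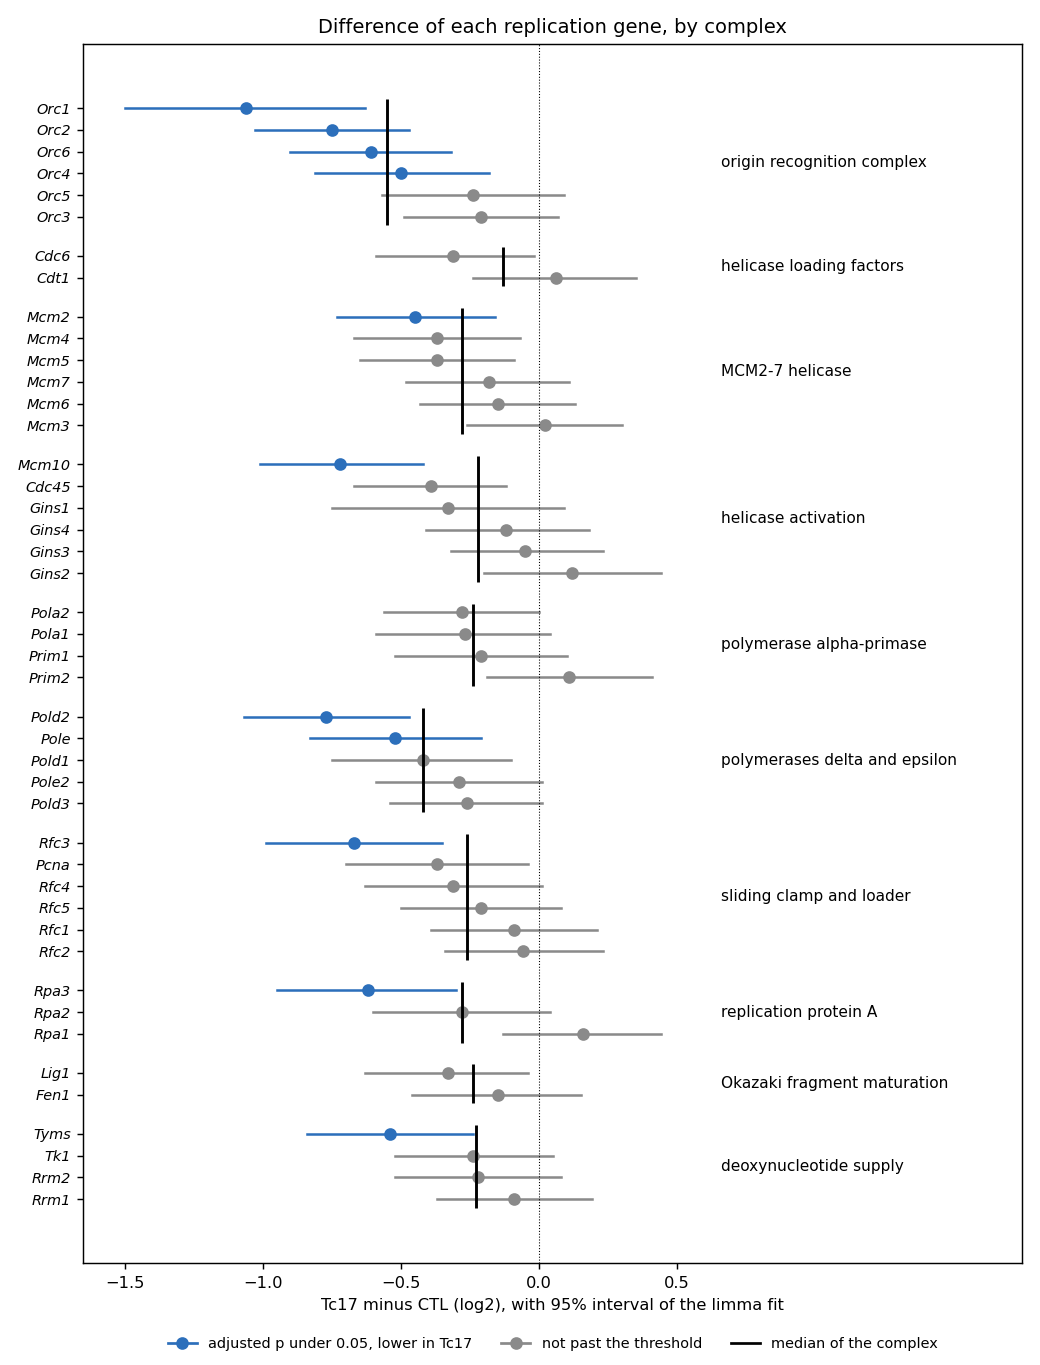
Tc17 minus CTL difference (horizontal axis, log2) of each of the 44 replication genes, by complex, with the 95% interval of the limma fit. Blue genes fell at an adjusted p under 0.05, genes in grey were not past it, and the median of each complex is a black bar. The ORC median was -0.55 and that of polymerases δ and ε -0.42, while the others lay between -0.28 and -0.13.

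Of polymerases δ and ε, which extend the lagging and the leading strand, 5 subunits are among the 44 genes. These had both Tc17 arrays below both CTL arrays, as did 24.8% of all genes tested. Of the 5, 2 fell, beside 7.44% of all genes tested. The small subunits *Pold4*, *Pole3* and *Pole4* belong to a further list, where *Pold4* rose by 1.47 and *Pole3* (-0.37) and *Pole4* (-0.31) did not pass. *Pold2*, the accessory subunit that holds polymerase δ together, stood at 6.93 and 6.87 in Tc17 cells, against 7.55 and 7.80 in CTLs, and fell by 0.77 ± 0.14 (limma adjusted p = 0.00271), a call kept whichever array was left out. *Pole*, the catalytic subunit of polymerase ε on the leading strand, stood at 6.61 and 6.51 in Tc17 cells, against 7.22 and 6.93 in CTLs. It fell by 0.52 ± 0.14 (limma adjusted p = 0.0283) and lost the call without CTL replicate 1 (-0.38), Tc17 replicate 1 (-0.57) or Tc17 replicate 2 (-0.47). *Pold1*, the catalytic subunit of polymerase δ, stood at 6.49 and 6.13 in Tc17 cells, against 6.76 and 6.71 in CTLs (-0.42, limma adjusted p = 0.0811), and passed without Tc17 replicate 1 (-0.61). *Pole2* (-0.29) and *Pold3* (-0.26) did not pass.

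None of the 4 genes of polymerase α-primase, which starts every new strand with an RNA-DNA primer, passed the test in limma. Only *Pola2* among them had an unadjusted p under 0.05, and 12.8% of all genes tested were lower at that p. *Pola2* stood at 6.53 and 6.46 in Tc17 cells, against 6.81 and 6.75 in CTLs (-0.28, limma adjusted p = 0.178). The others differed by -0.27 for the catalytic *Pola1*, -0.21 for the primase *Prim1* and 0.11 for its partner *Prim2*. The 95% intervals of the 44 genes had a median half-width of 0.30. Of the 33 genes that did not pass, 25 had an interval that included 0 and 8 had one wholly below it. These intervals are not adjusted for the number of genes tested, and the 8 are the same genes that had an unadjusted p under 0.05 without passing.

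At the clamp, *Rfc3*, a subunit of the loader, fell, and *Pcna*, the clamp that rings DNA and holds the polymerases, did not pass. *Rfc3* stood at 6.38 and 6.03 in Tc17 cells, against 6.92 and 6.82 in CTLs, and fell by 0.67 ± 0.15 (limma adjusted p = 0.00942). The call was lost without CTL replicate 1 (-0.62) or Tc17 replicate 2 (-0.50). *Pcna* stood at 9.59 and 9.20 in Tc17 cells, against 9.79 and 9.74 in CTLs (-0.37, limma adjusted p = 0.132), and passed without Tc17 replicate 1 (-0.57) and with an intensity trend and robust moderation (limma adjusted p = 0.0455). Its other probe set gave -0.36. The remaining loader subunits did not pass, with -0.31 for *Rfc4*, -0.21 for *Rfc5*, -0.09 for the large subunit *Rfc1* and -0.06 for *Rfc2*. The last of these was 0.00 with cyclic loess.

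The 3 subunits of replication protein A, which coats single-stranded DNA at the fork, had differences from -0.62 to 0.16. Of the 3, 1 fell, beside 7.44% of all genes tested. *Rpa3*, the smallest subunit, stood at 4.01 and 3.65 in Tc17 cells, against 4.46 and 4.46 in CTLs, and fell by 0.62 ± 0.15 (limma adjusted p = 0.0139). This rests on the brighter of its probe sets. The dimmer one, near the array medians, differed by -0.01, and with their mean the call was lost (-0.32). Of the fits without an array, only the one without Tc17 replicate 1 kept it, and the others gave -0.62 (either CTL array) and -0.44 (Tc17 replicate 2). *Rpa1*, the large DNA-binding subunit, had the highest difference of the 44 genes. It stood at 7.28 and 7.13 in Tc17 cells, against 7.04 and 7.05 in CTLs (0.16, limma adjusted p = 0.507). *Rpa1* was the only one of the 44 with both Tc17 arrays above both CTL arrays, a pattern shown by 4424 of all 14953 genes tested. *Rpa2*, the subunit phosphorylated under replication stress, differed by -0.28 and did not pass.

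The enzymes that finish Okazaki fragments on the lagging strand did not pass. *Lig1*, the ligase that seals the nicks, stood at 7.59 and 7.39 in Tc17 cells, against 7.86 and 7.79 in CTLs (-0.33, limma adjusted p = 0.125). *Fen1*, the flap nuclease that trims the fragments, differed by -0.15, and its groups overlapped.

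Of the enzymes that supply deoxynucleotides, *Tyms*, the thymidylate synthase that makes dTMP from dUMP, fell. It stood at 6.12 and 6.35 in Tc17 cells, against 6.77 and 6.78 in CTLs, a decrease of 0.54 ± 0.13 (limma adjusted p = 0.0188). Of the fits without an array, only the one without Tc17 replicate 2 kept the call, and the others gave -0.55 (CTL replicate 1), -0.53 (CTL replicate 2) and -0.42 (Tc17 replicate 1). *Tk1*, the thymidine salvage kinase of S phase, differed by -0.24 (limma adjusted p = 0.278), and its dimmer probe set, at 6.32 and 6.24 in Tc17 cells, against 6.95 and 6.55 in CTLs, by -0.47. The ribonucleotide reductase genes did not pass. *Rrm2*, the subunit that is made in S phase, differed by -0.22 (95% interval from -0.52 to 0.08), and *Rrm1*, its partner, by -0.09 (from -0.37 to 0.19).

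The 2 Tc17 arrays were not alike in these genes, and with 1 array per sample, culture and array cannot be told apart. Tc17 replicate 2 lay below Tc17 replicate 1 for 37 of the 44, with a median difference of -0.15, against 54.8% of all genes tested and a median of -0.02. Between the CTL arrays, replicate 2 lay below replicate 1 for 21 of the 44, with a median of 0.00, against 54.0% and -0.02 over all genes tested. Set against the CTL mean, Tc17 replicate 1 had a median of -0.18 over the 44 genes and lay below that mean for 38 of them. Tc17 replicate 2 had a median of -0.36 and lay below it for 41. The largest gaps within Tc17 cells were those of *Orc1* (replicate 2 minus replicate 1, -0.68) and *Gins1* (-0.65), while *Orc5* (0.33), *Gins2* (0.32) and *Tyms* (0.24) were higher in replicate 2.

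**Figure D4:**
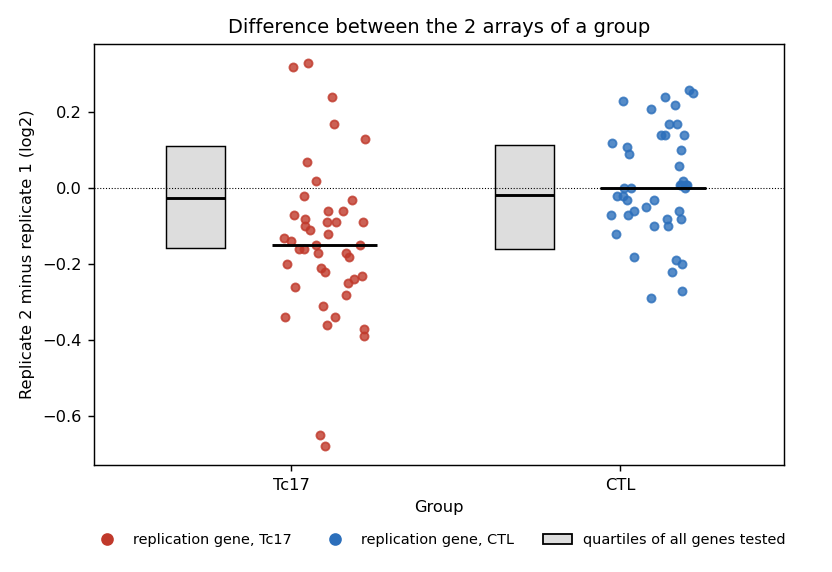
Replicate 2 minus replicate 1 (vertical axis, log2) within each group. Points are the 44 replication genes, red in Tc17 cells and blue in CTLs, black bars are their medians (-0.15 for Tc17 and 0.00 for CTL), and boxes are the quartiles of all 14953 genes tested, with the median as a bar.

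Further genes of the pathway, in 4 lists grouped by function, were set beside these. Their counts stand against 7.44% of all genes tested that fell and 8.22% that rose, and nothing is read from them about a list as a whole. Of 29 other factors of the fork and the origins, 6 fell and 1 rose, with a median of -0.29. *Tipin* (by 0.65 ± 0.15, limma adjusted p = 0.0113) and *Timeless* (by 0.49 ± 0.13, limma adjusted p = 0.0225), whose products form the fork protection complex, both fell. So did *Ticrr* (by 0.58), which helps bring CDC45 to the origin, *Top1* (by 0.47), a topoisomerase, *Gmnn* (by 0.45), the inhibitor of CDT1, and *Recql4* (by 0.45), a helicase. The 1 that rose was *Pold4*, the smallest subunit of polymerase δ. It stood at 7.70 and 7.73 in Tc17 cells, against 6.26 and 6.22 in CTLs, and was 2.78-fold higher (1.47 ± 0.12, limma adjusted p = 2.13e-05). *Pold2*, of the same enzyme, moved the opposite way. The call of *Pold4* was kept whichever array was left out. Those of *Timeless* (differences from -0.54 to -0.44), *Gmnn* (from -0.52 to -0.38) and *Recql4* (from -0.52 to -0.38) were lost with each of the 4 arrays left out in turn. *Ticrr* was lost without CTL replicate 1 or Tc17 replicate 2, *Tipin* without CTL replicate 2 or Tc17 replicate 2, and *Top1* was kept only without Tc17 replicate 1, with differences from -0.78 to -0.33 for these 3.

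Of 9 tested genes of chromatin assembly at the fork, *Asf1a*, a chaperone of histones H3 and H4, fell by 0.75 ± 0.14 (limma adjusted p = 0.00362), and 8 did not pass, with a median of -0.18 for the list. Of 10 tested genes of other deoxynucleotide metabolism, 3 fell and 2 rose, with a median of -0.21, beside the same 7.44% and 8.22% of all genes tested. *Samhd1*, which breaks deoxynucleotides down, stood at 9.68 and 9.92 in Tc17 cells, against 8.69 and 8.66 in CTLs, and was 2.18-fold higher (1.12 ± 0.14, limma adjusted p = 2.40e-04). *Dck*, a kinase that salvages deoxynucleosides, rose by 0.60 ± 0.14 (limma adjusted p = 0.0125). *Dctd*, a deaminase that makes dUMP, fell 1.99-fold (by 0.99 ± 0.17, limma adjusted p = 0.00199), *Shmt1*, which supplies one-carbon units for dTMP, by 0.76 ± 0.13 (limma adjusted p = 0.00186) and *Nme1*, a nucleoside diphosphate kinase, by 0.60 ± 0.13 (limma adjusted p = 0.00745). *Dck* was lost without CTL replicate 1 or Tc17 replicate 2 (differences from 0.47 to 0.72 over the 4 fits), and *Nme1* without Tc17 replicate 2 (from -0.65 to -0.56), and the others kept their calls whichever array was left out.

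Of 20 genes of the E2F and RB families and their cyclins, 3 fell and 2 rose, with a median of -0.10, against 7.44% and 8.22% of all genes tested and a median of 0.02. *Ccne1*, the cyclin E1 gene that drives entry into S phase, fell by 0.84 ± 0.16 (limma adjusted p = 0.00368), *E2f3*, an activating E2F, by 0.79 ± 0.14 (limma adjusted p = 0.00225) and *Cdc25a*, the phosphatase that activates cyclin-dependent kinase 2, by 0.65 ± 0.15 (limma adjusted p = 0.0125). The dimmer probe set of *E2f3* differed by -0.25. *Rbl2*, which encodes p130, the RB-family repressor of quiescent cells, stood at 6.49 and 6.53 in Tc17 cells, against 5.41 and 5.75 in CTLs, and rose by 0.94 ± 0.14 (limma adjusted p = 0.00122). *Rb1*, the retinoblastoma gene, rose by 0.43 ± 0.13 (limma adjusted p = 0.0431), a call lost with each of the 4 arrays left out in turn (differences from 0.36 to 0.51), and *Cdc25a* was lost without CTL replicate 1 or Tc17 replicate 2 (differences from -0.84 to -0.47 over the 4 fits). The other 15 genes of this list did not pass. *Ccne1*, *E2f3* and *Rbl2* kept their calls whichever array was left out.

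**Figure D5:**
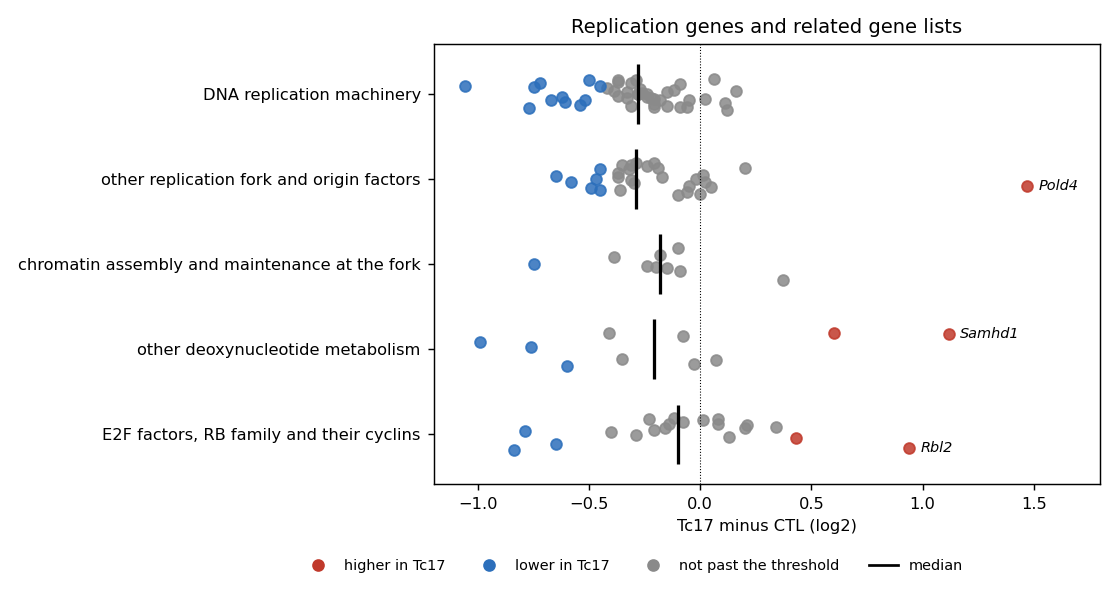
Tc17 minus CTL difference (horizontal axis, log2) of the 44 replication genes and of the tested members of 4 further lists. Genes that rose are red, genes that fell are blue and the rest are grey, with the median of each list as a black bar, from -0.29 for other replication fork and origin factors to -0.10 for the E2F and RB list. *Pold4* (1.47), *Samhd1* (1.12) and *Rbl2* (0.94) stand at the right.

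The cultures carried the markers of CD8 T cells, which do not tell Tc17 cells from CTLs. *Cd8a*, *Cd8b1* and the CD3 genes lay between 7.93 and 10.66, and their summed log2 level was 47.35 and 47.68 in Tc17 cells, against 43.84 and 44.27 in CTLs. All of them but *Cd8b1* were higher in Tc17 cells in limma (adjusted p from 3.32e-04 to 0.00838). Of 23 markers of CD4 T cells, B cells, macrophages, dendritic cells, NK cells, γδ T cells and erythroid cells, 17 lay under the lowest array median of 3.18 on all 4 arrays. Among the others was *Zbtb7b* of CD4 T cells, which was lower in Tc17 cells (-0.63, limma adjusted p = 0.00923), and *Cd79b* of B cells, at 5.14 and 5.02 in Tc17 cells, against 4.78 and 4.53 in CTLs (0.43, limma adjusted p = 0.0619), did not pass. *Cd4* itself was at 3.28 and 2.83 in Tc17 cells, against 3.21 and 2.92 in CTLs, and the other 3, *Cd79a*, *Zbtb46* and *Sox13*, did not exceed 3.63. The summed level of the 3 CD4 T cell markers was 9.39 to 10.05 in Tc17 cells and 10.11 to 10.48 in CTLs. The part of these markers in the differences above was not tested.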

How the data were processed

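Total RNA of 4 samples was amplified in 2 cycles of cDNA synthesis, labelled with biotin and hybridised to 1 array each, per the labels. The authors deposited RMA values, taken here as log2 because they run from 1.18 to 13.70; for RMA's version and settings, the sources used here give none. Quantile normalisation within RMA hides any shift of all transcripts, and background compresses differences of dim probe sets. Of 35557 rows, 21789 carried 1 gene symbol. Genes with a mean under 2.59, the 25th percentile (4985 genes), were left out and 14953 were tested in limma 3.58.1 (R 4.3.3, lmFit and eBayes), Tc17 minus CTL, two-sided, with Benjamini-Hochberg adjustment over all of them, and calls were made under 0.05. Moderation added 8.98 prior degrees of freedom to 2 residual ones. The fit was first run on simulated data whose spread was drawn from the fit's own estimate, so that estimate itself was not tested. It recovered 7.98% of log2 changes of 0.3, 44.5% of those of 0.5 and 89.9% of those of 0.75, with 4.69% false calls. Changes as small as most of those seen here were thus often missed. The precision is limited by the number of arrays, since 2 against 2 cannot reach a p under 0.333 in an exact permutation test. The 44 genes, their grouping and the further lists were chosen with earlier results of these data known. Every one of the 44 genes is named. Per-array values are given for those past the threshold or with an unadjusted p under 0.05, for the highest and the lowest, and for a few others picked after their values were seen. Of the further genes, 68 of 70 had a probe set of their own, and those past the threshold are named, at most 6 per list by size, plus *Gmnn*, which equalled *Recql4* to 2 decimals. Motifs were searched in Python 3.11.15 with pandas 2.3.3, and matplotlib 3.10.9 drew the figures. The alternatives were other filters, moderation with an intensity trend, cyclic loess, median centring, averaged probe sets, all rows tested, the replicate block, the study's RNA-seq thresholds, and each array left out.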

Additional observations from a re-analysis of the deposited data

How the results depend on the processing

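The count of 11 genes that fell was 10 to 14 under the other filters, moderation, scalings, the mean of probe sets and the replicate block. In those fits 5.25% to 11.9% of all genes tested fell. The count was 2 at an adjusted p under 0.01 with a log2 difference of at least 0.75, which is stricter by construction. It was 0 with every row of the table, where both the rows tested and the prior degrees of freedom (3.13, against 8.98) changed, and the cause was not tested. The fit of 19938 genes with no filter kept all 11. No setting called any of the 44 higher. With an array left out, the median ran from -0.36 to -0.18 over all 44 genes, from -0.65 to -0.46 for ORC, from -0.34 to -0.16 for the MCM ring, from -0.29 to -0.05 for helicase activation, from -0.34 to -0.12 for polymerase α-primase, from -0.57 to -0.24 for polymerases δ and ε, from -0.33 to -0.13 for deoxynucleotide supply, from -0.45 to -0.11 for replication protein A, from -0.21 to -0.04 for the loading factors, from -0.35 to -0.14 for Okazaki fragment maturation and from -0.32 to -0.18 for the clamp and its loader. A fit without an array leaves 1 sample in a group, which is assumed to vary like the other group. Directions turned, with an array left out, for *Cdt1* (from -0.03 to 0.14), *Mcm3* (from -0.05 to 0.09), *Gins2* (from -0.04 to 0.28), *Prim2* (from -0.01 to 0.23), *Rfc1* (from -0.20 to 0.02) and *Rfc2* (from -0.13 to 0.02, and 0.00 with cyclic loess), none of which had passed. The replicate number as a block changed the call of *Mcm2* alone and gave 10 genes that fell. Same-numbered arrays deviated from their group means with a correlation of 0.02 across the genes tested, so the numbers were not taken as pairs. The further lists were fitted again without each array, a choice made after seeing the data, which gave 5 to 11 genes that fell and 3 to 4 that rose, against 13 and 5 with all arrays.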
